A study of Caenorhabditis elegans with 2 samples.

Results

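The regions described here are the eGFP-LSY-2 ChIP-seq regions at genes for small nucleolar RNAs (snoRNAs), small nuclear RNAs (snRNAs) and spliced leader RNAs (SL RNAs) of Caenorhabditis elegans. They were chosen by position alone: the summit of a region, its point of highest signal, lay within 200 bp of a gene of the snoRNA or snRNA biotype or of a gene named sls-, and not within 200 bp of a tRNA gene. Of the 30000 regions that the authors listed for both replicates together, peaks and background alike, 238 met this rule. Of these 238 regions, 101 were also among the 2182 regions that passed the authors' IDR threshold (irreproducible discovery rate, a measure of how well ranks hold between replicates over a whole list). The regions that passed were the 2182 of highest signal for both replicates together, with 45.797 the lowest signal inside and 45.789 the highest outside, so passing does not say that a given region kept its rank in each replicate. The 101 are 42.4% of the regions at small RNA genes (95% Wilson interval 36.3 to 48.8%), where 7.27% of all listed regions passed. 1 further region lay near both a tRNA gene and a small RNA gene and was left out.

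Chromatin immunoprecipitation followed by sequencing was done on whole L2 larvae of mixed sex from strain OP240, and the labels give lsy-2 as the target of the antibody. The genotype of the strain is unc-119(ed3) III; wgIs240, where wgIs240 is an integrated transgene that makes eGFP fused to LSY-2. The protein is a transcription factor with C2H2 zinc fingers. There was 1 group with 2 biological replicates and no second condition, so the data give no contrast between groups, and regions of the same libraries are not replicates of each other. Signal values are the authors' own and have no unit; the depth of the libraries is unknown. Because the chromatin came from whole larvae, signal in few cells and weak signal in many cells cannot be told apart.

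SnoRNAs guide the chemical modification of ribosomal RNA, snRNAs are the RNA cores of the spliceosome, and SL RNAs donate the short leader that nematodes splice onto the front of many messenger RNAs. SnRNA genes of animals carry a proximal sequence element upstream of the transcript, which is bound by the SNAPc complex and serves RNA polymerase II at most of them and RNA polymerase III at the U6 genes. The promoters of tRNA genes are instead internal and consist of a box A and a box B, and some C. elegans snoRNA genes carry such boxes just upstream of the snoRNA.

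Some of the sequences under the summits carried short words that recur between genes, and 11 sequences are shown. Of these, 9 are the 3 regions of highest signal in each class on chromosomes II, III, IV, V and X. That leaves out F39B2.14 and sls-2.4, the 2 regions of highest signal of all, and F59C6.15, which lie elsewhere. Y38F2AR.14 and F55A11.10 were added because they hold the box words. By the nearest gene, 32 of the 101 thresholded regions were at genes with the split word described next. Another 19 were at genes with a pair of tRNA-like boxes and 50 at genes with neither. Each runs 5′ to 3′ along the strand of the small RNA gene from 75 bases before the summit to 75 after it (ce11 coordinates, sequence from the RefSeq copy of WBcel235). In sls-2.1 and sls-2.2, both SL RNA genes, capitals mark a run of 17 bases that the stretch before both genes shares; these genes have neither the split word nor the boxes, and their regions are among the 50. The run was also found in the 150 bases before sls-2.3, which had no thresholded summit, and before 0 of the 19973 protein-coding genes. Only these 3 of the sls-2 genes have the run, and sls-2.4, the strongest of them by signal, does not. The run was read from sls-2.1 and sls-2.2, and a run this long is rare in any sequence. The count of 0 therefore does not test it. In the snRNA gene W05B2.8 and the snoRNA genes Y53F4B.47 and ZK994.7, capitals mark a split word, AACNC followed 6 bases later by TGTC. In the snoRNA genes Y43F8C.22, Y38F2AR.14 and F55A11.10 they mark the consensus of tRNA box A and, after it, that of box B (GTTCAANNC, GTTCGANNC, GATCAANNC or GATCGANNC). Matches to box A that overlap each other make 1 longer run in Y43F8C.22 and Y38F2AR.14. The snRNA genes C52E4.8 and F38E11.10 and the second, downstream summit of sls-2.2 have nothing in capitals.
sls-2.1, chrII:5844756-5844906, plus strand: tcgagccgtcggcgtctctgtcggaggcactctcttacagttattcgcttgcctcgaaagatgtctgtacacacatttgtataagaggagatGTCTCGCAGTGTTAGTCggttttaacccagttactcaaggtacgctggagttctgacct
sls-2.2, chrII:5543488-5543638, plus strand: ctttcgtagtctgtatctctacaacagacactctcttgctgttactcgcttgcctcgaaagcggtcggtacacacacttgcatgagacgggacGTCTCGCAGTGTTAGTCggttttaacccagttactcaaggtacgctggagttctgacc
sls-2.2, chrII:5543696-5543846, plus strand: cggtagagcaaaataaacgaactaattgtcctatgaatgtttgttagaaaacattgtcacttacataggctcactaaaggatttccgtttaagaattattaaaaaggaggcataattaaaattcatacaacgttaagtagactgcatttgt
W05B2.8, chrIII:10989547-10989697, plus strand: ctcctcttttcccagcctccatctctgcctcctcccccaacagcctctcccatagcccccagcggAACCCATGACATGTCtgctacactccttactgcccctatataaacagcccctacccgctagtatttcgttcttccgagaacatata
C52E4.8, chrV:11980005-11980155, plus strand: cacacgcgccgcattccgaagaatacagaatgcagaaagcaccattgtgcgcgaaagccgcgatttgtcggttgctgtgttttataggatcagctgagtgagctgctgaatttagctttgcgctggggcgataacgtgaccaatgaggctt
F38E11.10, chrIV:9444526-9444676, plus strand: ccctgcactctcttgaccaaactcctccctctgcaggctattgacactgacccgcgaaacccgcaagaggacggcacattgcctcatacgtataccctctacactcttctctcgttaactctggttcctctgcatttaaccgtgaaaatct
Y53F4B.47, chrII:15025896-15026046, minus strand: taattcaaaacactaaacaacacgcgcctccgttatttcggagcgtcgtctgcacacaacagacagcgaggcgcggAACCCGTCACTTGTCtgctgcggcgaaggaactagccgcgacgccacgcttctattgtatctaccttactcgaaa
ZK994.7, chrV:8500468-8500618, plus strand: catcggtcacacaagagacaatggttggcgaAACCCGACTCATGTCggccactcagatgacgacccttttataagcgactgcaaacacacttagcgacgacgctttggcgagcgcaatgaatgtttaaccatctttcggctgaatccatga
Y43F8C.22, chrV:19643151-19643301, minus strand: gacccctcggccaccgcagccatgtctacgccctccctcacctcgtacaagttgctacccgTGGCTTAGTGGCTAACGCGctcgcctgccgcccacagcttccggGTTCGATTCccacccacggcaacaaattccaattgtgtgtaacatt
Y38F2AR.14, chrIV:2408615-2408765, minus strand: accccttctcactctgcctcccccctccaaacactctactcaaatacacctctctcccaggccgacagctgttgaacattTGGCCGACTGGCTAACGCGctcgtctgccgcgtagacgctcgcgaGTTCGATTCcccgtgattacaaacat
F55A11.10, chrV:11782837-11782987, plus strand: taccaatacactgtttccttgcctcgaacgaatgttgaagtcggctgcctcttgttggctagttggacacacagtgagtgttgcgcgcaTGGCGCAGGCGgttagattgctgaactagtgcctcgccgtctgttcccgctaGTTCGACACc

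Among the 3 classes, SL RNA genes held the regions of highest median signal. The 11 thresholded SL RNA regions had a median signal of 277 (46.7 to 728), the 15 snRNA regions one of 114 (48.3 to 429) and the 75 snoRNA regions one of 83.9 (45.9 to 1140). Over all 2182 thresholded regions the median was 83.4. The snoRNA regions as a group sat at the level of the whole list, and the SL RNA median was 3.32 times that of the list. That factor is per region and not per gene. The 11 SL RNA regions were at 8 genes, and 3 of these genes gave a pair of summits each. No thresholded SL RNA region had a signal between 87.6 and 255, so the median depends on which summits are counted. A median per gene was not calculated. The share that passed the threshold was 55% of 20 listed regions for SL RNA, 43.1% of 174 for snoRNA and 34.1% of 44 for snRNA genes, and the 95% Wilson intervals of these shares overlapped (34.2 to 74.2%, 36.0 to 50.5% and 21.9 to 48.9%). All 3 shares are above the 7.27% of the whole list. For comparison, 32.4% of 349 listed regions at tRNA genes passed, with a median signal of 74.2. Of the 101 thresholded regions at small RNA genes, 57 (56.4%) lay in the upper 50% of the thresholded list by signal. They made up 4.63% of the thresholded regions and 3.60% of their summed signal.

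**Figure D1:**
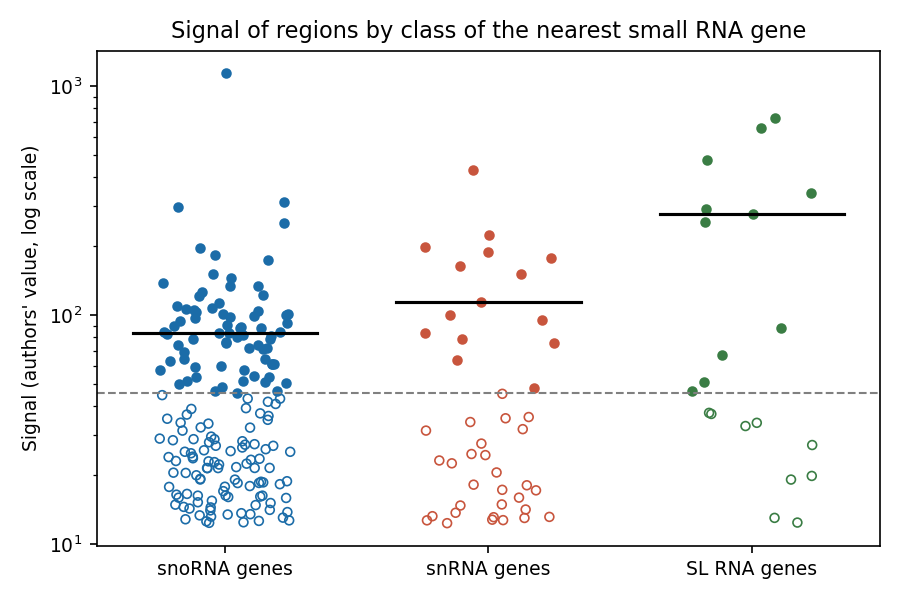
Signal of each of the 238 listed regions (points, authors' value, log scale) by class of the nearest small RNA gene; filled points passed the IDR threshold, open points did not, black bars are the medians of the filled points and the dashed line is the lowest signal on the thresholded list. The medians are 83.9 at snoRNA, 114 at snRNA and 277 at SL RNA genes, and 1 snoRNA region stands at 1140.

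All thresholded SL RNA regions were at sls-2 genes, which encode SL2, the leader used for the downstream genes of operons. The strongest was at sls-2.4 (WBGene00004836, chromosome I, region 4171994 to 4172506), with a signal of 728 for both replicates together, 469 in replicate 1 and 254 in replicate 2. Next came sls-2.1 (WBGene00004833, chromosome II, region 5844639 to 5845025), with 659 together, 412 in replicate 1 and 232 in replicate 2. The third was sls-2.2 (WBGene00004834, chromosome II, region 5543413 to 5543700), with 477 together, 284 in replicate 1 and 184 in replicate 2. The order of these 3 regions was the same in both replicates, and in each they led the SL RNA regions.

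Each of these 3 genes also had a second thresholded summit downstream of its 3′ end. Its signal was 291 at sls-2.4 (194 in replicate 1 and 129 in replicate 2), 341 at sls-2.2 (182 and 169) and 255 at sls-2.1 (158 and 79.98). At sls-2.4 both summits belong to regions with the same start and end. The summit 20 bp upstream of sls-2.8 (chromosome III, region 12250324 to 12250532) had a signal of 277, with 187 in replicate 1 and 78.8 in replicate 2. These 7 regions were therefore at 4 genes.

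A gap separated them from the other SL RNA regions. Sls-2.7 had a signal of 87.6 (49.6 in replicate 1 and 37.4 in replicate 2), sls-2.18 of 67.3 (33.7 and 36.4) and sls-2.16 of 51.2 (29.6 and 22.4). Sls-2.14 had 46.7, with 40.5 in replicate 1 and 9.25 in replicate 2. Its rank of 12839 in the list of replicate 2 alone lies far outside the 2182 regions of highest signal there, so its value rests on replicate 1.

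By gene, 8 of the 18 sls-2 genes had a thresholded summit within 200 bp and 14 had a listed one. None of the 12 sls-1 genes, which encode the SL1 leader, had a listed region (0 of 12, with a 95% Wilson interval up to 24.2%). The annotated sls-1 genes are identical in sequence in sets of 2 and 10 copies, whereas each sls-2 gene with a thresholded summit is single. Reads of identical copies cannot be placed on 1 of them, and the authors' treatment of such reads is not stated in the labels or lists. The part of this in the absence of sls-1 regions was not tested.

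The snRNA regions were led by W05B2.8 (WBGene00014543, chromosome III, region 10989480 to 10989745), with a signal of 429 together, 271 in replicate 1 and 160 in replicate 2. C52E4.8 followed with 225 (142 in replicate 1 and 84.04 in replicate 2), then F38E11.10 with 199 (110 and 87.7) and F54D8.7 with 188 (125 and 59.7). All 4 summits lay 38 to 57 bp upstream of the gene. Replicate 1 was higher than replicate 2 in each of them.

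Sup-6 and sup-39, 2 U1 snRNA genes known from suppressor mutations that change splicing, both had thresholded regions. The summit of sup-6 14 bp inside the gene had a signal of 178, with 115.4 in replicate 1 and 54.5 in replicate 2. A second one 227 bp from its 5′ end had 164, with 59.6 in replicate 2 and no summit within 100 bp in replicate 1. The region of this second summit still overlapped the 2182 strongest of each replicate. At sup-39 the signal was 83.5, with 45.3 in replicate 1 and 38.6 in replicate 2. An annotated gene named mir-1831, of the snRNA biotype, lies inside sup-39 and shares this region.

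The second, downstream summits of 3 of the leading snRNA genes were also thresholded, at F38E11.10 with 152 (51.1 in replicate 1 and 65.6 in replicate 2), at W05B2.8 with 114 (79.1 and 28.9) and at C52E4.8 with 101 (63.7 and 36.9). F32B5.9 had 94.9 (54.8 and 40.4), R07E5.16 had 78.5 (31.2 and 11.9) and C28A5.7 had 75.9 (48.7 and 23.4). Replicate values are those of the nearest replicate summit within 100 bp. The region at R07E5.16 overlapped the 2182 strongest of each replicate, so 11.9 need not be the highest signal of replicate 2 there. M163.13 had 63.9 (22.8 in replicate 1 and 34.2 in replicate 2) and F08G2.10 had 48.3 (20.6 and 27.5), and these 2 regions overlapped the 2182 strongest of replicate 2 only. All 4 leading snRNA genes have identical copies. W05B2.8, R07E5.16 and C28A5.7 belong to a set of 14 genes with identical sequence, F08G2.10 to one of 7, F54D8.7 to one of 3, and C52E4.8 and F38E11.10 each to a pair. In all, 10 of the 15 snRNA regions were at such genes, where a region is assigned to 1 copy by the sequence around the gene. Of the 101 thresholded regions, 100 had a window of 101 bases around the summit that occurs once in the genome, and the exception was F08G2.10. In all, 12 of the 99 snRNA genes (12.1%) had a thresholded summit, with sup-39 and mir-1831 counted as separate genes.

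The strongest region of the whole set was at the snoRNA gene F39B2.14 (WBGene00219940, chromosome I, region 14759366 to 14759723), with a signal of 1140 and rank 32 of the thresholded list. Its value was 636 in replicate 1 and 507 in replicate 2. Its summit lay 130 bp upstream of the snoRNA but 69 bp upstream of the protein-coding gene tmem-107, so it was nearer to the 5′ end of a protein-coding gene, as was the region at F25H2.14.

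Below it the snoRNA regions formed a continuous range. Y53F4B.47 (WBGene00045141, chromosome II, region 15025866 to 15026090) had 312, with 170 in replicate 1 and 141 in replicate 2. F59C6.15 had 296 (213 in replicate 1 and 84.6 in replicate 2) and ZK994.7 had 253 (163 and 90.4). Y43F8C.22 had 197 (110 and 89.2), T26A8.6 had 183 (114 and 70.2) and C36E8.11 had 175 (120 and 60.3). C51F7.4, whose region is shared with the snoRNA gene C51F7.3, had 150.9 (87.3 and 65.5), M7.15 had 146 (67.5 and 80.4) and Y55F3BR.9 had 138 (84.2 and 60.6). Of these 10 regions, 9 were higher in replicate 1, and M7.15 was higher in replicate 2. Only F39B2.14 was among the 200 regions of highest signal on the thresholded list, and 8 of the 75 were among the highest 500.

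Of the 346 snoRNA genes, 75 (21.7%) had a thresholded summit, and over all 475 small RNA genes 95 (20%) had one and 207 had a listed one. For protein-coding genes, counted over the wider window of 1000 bp upstream to 200 bp downstream of the 5′ end (the promoter window), the share was 9.85%. SmY RNA genes, a nematode family of small RNAs linked to trans-splicing, had 1 of 12 genes with a thresholded summit. That was smy-2, annotated as snoRNA, with a signal of 103 (71.9 in replicate 1 and 36.8 in replicate 2). The 44 genes with an identical copy elsewhere had a thresholded summit at 7 (15.9%) and the 431 single genes at 88 (20.4%). By chromosome the share ranged from 4 of 36 genes on X (11.1%) to 24 of 87 on chromosome II (27.6%).

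The summits of the thresholded regions lay mainly just upstream of the small RNA. Of the 101 summits, 76 (75.2%, 95% Wilson interval 66.01 to 82.6%) were upstream of the gene, 14 inside it and 11 downstream of it. Those upstream had a median position of -44 bp from the annotated 5′ end (interquartile range -70 to -26), and 72 of them lay within 100 bp. The listed regions that did not pass the threshold were spread more evenly, with 58 of 137 (42.3%, 34.4 to 50.7%) upstream, 34 inside and 45 downstream, and these upstream summits had a median of -79.5 bp. The rule allows a wider span downstream than upstream, since it counts distance from the whole gene. Signal chose which regions passed, so this difference describes strong against weak regions. At tRNA genes 75 of 113 thresholded summits (66.4%) were upstream, with a median of -26 bp.

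Upstream summits made up 62 of 75 snoRNA regions (82.7%), 8 of 15 snRNA regions and 6 of 11 SL RNA regions. The 6 upstream SL RNA summits lay between -35 and -20 bp. The 95% Wilson intervals were 72.6 to 89.6% for snoRNA, 30.1 to 75.2% for snRNA and 28.0 to 78.7% for SL RNA regions, and all 3 overlap. At 3 SL RNA and 3 snRNA genes a downstream summit stood beside one upstream of the same gene, and at sup-6 beside one inside it.

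**Figure D2:**
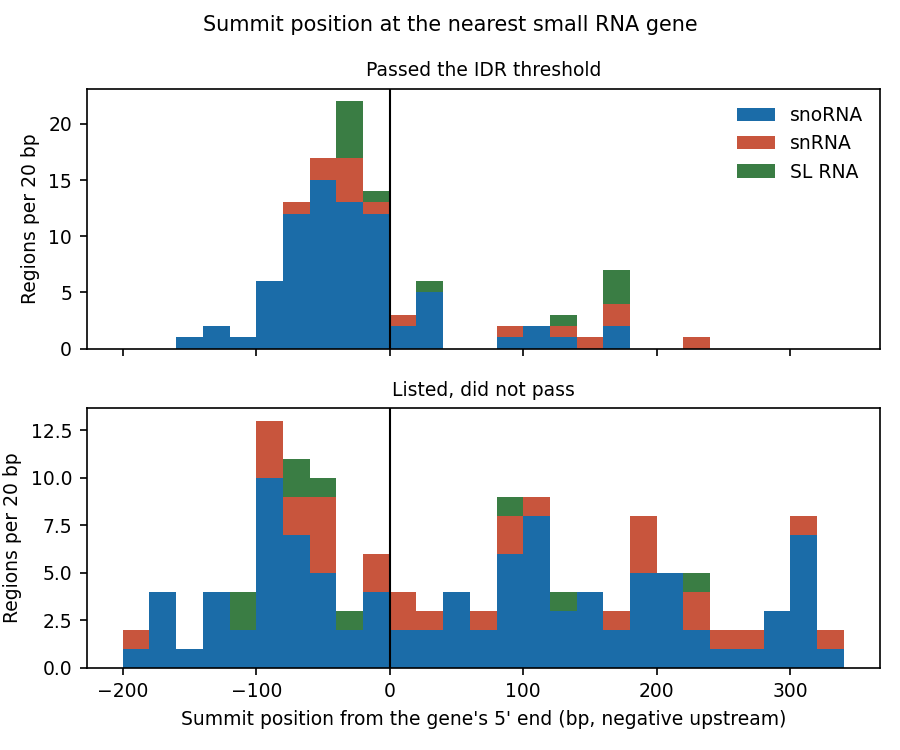
Number of regions per 20 bp by summit position from the 5′ end of the nearest small RNA gene (bp, negative upstream), for regions that passed the IDR threshold (above) and listed regions that did not (below), coloured by class. The 101 regions that passed pile up before the 5′ end, with 72 in the last 100 bp upstream, while 43 of the 137 others lie there.

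Relative to protein-coding genes, 37 of the 101 thresholded summits (36.6%) lay in a promoter window, against 66.03% of the other 2081 thresholded regions. Of the 137 listed regions that did not pass, 40 (29.2%) lay in one. Introns of protein-coding genes held 44 of the thresholded summits (43.6%, against 17.5% of the other thresholded regions and 40.1% of those that did not pass), and the space between protein-coding genes held 54 (53.5%, against 76.4% and 41.6%). Many C. elegans snoRNA genes lie in introns, so the place of a summit follows in part from the genes chosen.

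Where a snoRNA gene lay relative to protein-coding genes went with how often it had a summit. Thresholded summits were at 38 of 130 snoRNA genes outside protein-coding genes (29.2%), at 25 of 142 in an intron of a gene on the same strand (17.6%), at 10 of 27 in an intron of a gene on the opposite strand (37.0%) and at 2 of 47 that overlap an exon (4.26%). These 2 were F39B2.14, whose summit is nearer to the 5′ end of tmem-107, and C51F7.4. The summit of C51F7.4 also counts for C51F7.3, in an intron of the same strand. A snoRNA in an intron of the same strand can be made from the intron of its host and need not have a promoter. Within this intronic group the counts differed by the words before the gene, which were chosen with the members' sequences in view. The split word was before 12 of these 142 genes, of which 8 had a thresholded summit; the box pair was before 11, of which 9 had one; of the other 119, 8 had one (6.72%).

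Over all small RNA genes the words, searched on the strand of the gene from 150 bases before it to 20 bases into it, gave these counts. The split word was found at 78 genes, of which 30 had a thresholded summit (38.5%, 95% Wilson interval 28.4 to 49.6%). The box pair, box B starting 25 to 80 bp after box A, was found at 29, all snoRNA genes, of which 20 had one (69.0%, 50.8 to 82.7%). Of the 368 genes with neither, 45 had one (12.2%, 9.27 to 16.0%). No gene had both. The region shared by C51F7.4 and C51F7.3 counts in 2 of these groups, since C51F7.4 has neither and C51F7.3 has the box pair. Among snoRNA genes, thresholded summits were at 19 of 38 with the split word and at 36 of 279 with neither (12.9%). Among snRNA genes they were at 7 of 31 with the split word and at 5 of 68 with neither (7.35%). Sup-39 and mir-1831, which share a region, both count among the 7. Among sls-2 genes the counts were equal, 4 of 9 with the split word and 4 of 9 without it, and the 3 SL RNA genes of highest signal, sls-2.4, sls-2.1 and sls-2.2, do not have it.

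These words were chosen with the members' sequences in view, so the shares describe the genes and do not test the words. The split word was read from thresholded regions. The box search was first run with another pair of words, TGGNNNAGT and GTTCNANNC before the gene, which found 12 genes, 10 of them with a thresholded summit, and was then replaced by the tRNA consensus. The searches share 11 genes, 9 of them with a thresholded summit. In the same window the split word stood before 50 of the 19973 protein-coding genes (0.250%) and the box pair before 16 (0.0801%). Of 612 tRNA genes, whose own box B lies farther inside the gene than the window reaches, 3 had the split word and 1 the box pair. Whether the split word is the proximal sequence element was not tested.

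**Figure D3:**
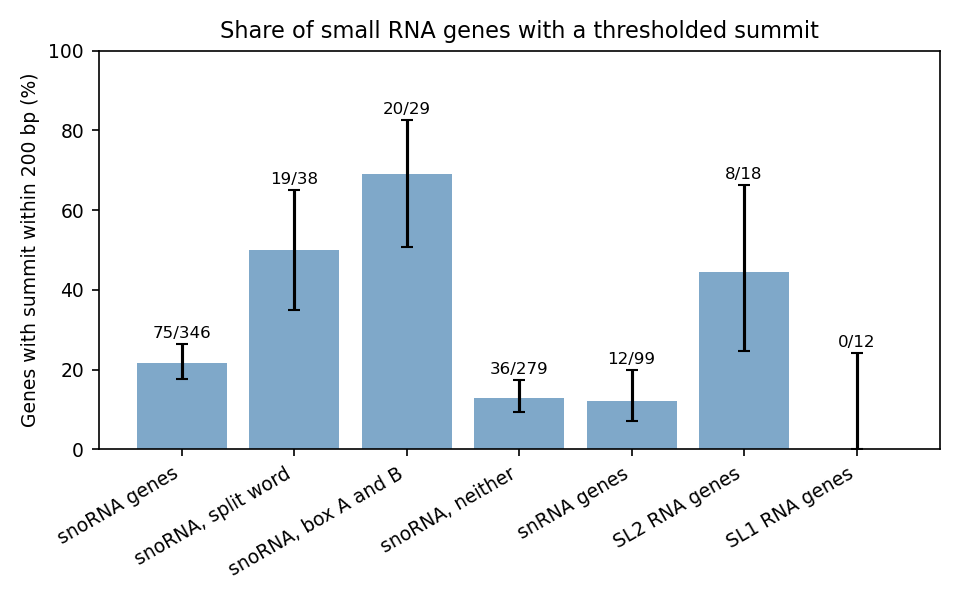
Share of small RNA genes with a thresholded summit within 200 bp (bars, %), for snoRNA genes and their groups by word, for snRNA genes, and for the sls-2 (SL2) and sls-1 (SL1) genes; error bars are 95% Wilson intervals and the numbers are genes with a summit over all genes. The share is 69.0% at snoRNA genes with the box pair, 50% with the split word and 12.9% with neither.

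Around the summits the words were as unevenly spread. In 170 bases centred on the summit, on either strand, 27 of the 101 thresholded regions (26.7%) held the split word, against 18 of the other 2081 thresholded regions (0.865%). The box pair was in 19 (18.8%), against 66 of the others (3.17%), and of those 66 regions 61 were at tRNA genes and 5 were not. Over all 30000 listed regions the shares were 0.73% and 0.84%. The median signal was 99.6 for the 32 regions at genes with the split word, 94.7 for the 19 at genes with the box pair and 83.1 for the 50 with neither, and the ranges overlapped.

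The split word and box A started at similar median distances before the gene. The first base of the split word had a median position of -59 bp in 29 genes (-80 to -54), and 20 of these were between -62 and -55. Upstream summits at these genes had a median position of -25.5 bp and lay a median 34.5 bp after the start of the word; 23 of 24 lay after it, and the exception was Y53F4B.47, with its summit 1 bp before the word. Box A started at a median of -58 bp (-72 to -42, with 9 of 19 between -62 and -55) and box B at -14 bp (-27 to -5) in 19 genes. There the upstream summits had a median position of -52.5 bp, a median 6 bp after the start of box A, with 10 of 18 after it. Where matches to box A overlapped, the last was taken, at -45 bp in Y43F8C.22 and -42 bp in Y38F2AR.14. The positions and range of box A depend in part on that choice. The place of a summit is read from fragments of 150 to 350 bp, per the labels, and carries an error that the lists do not give.

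**Figure D4:**
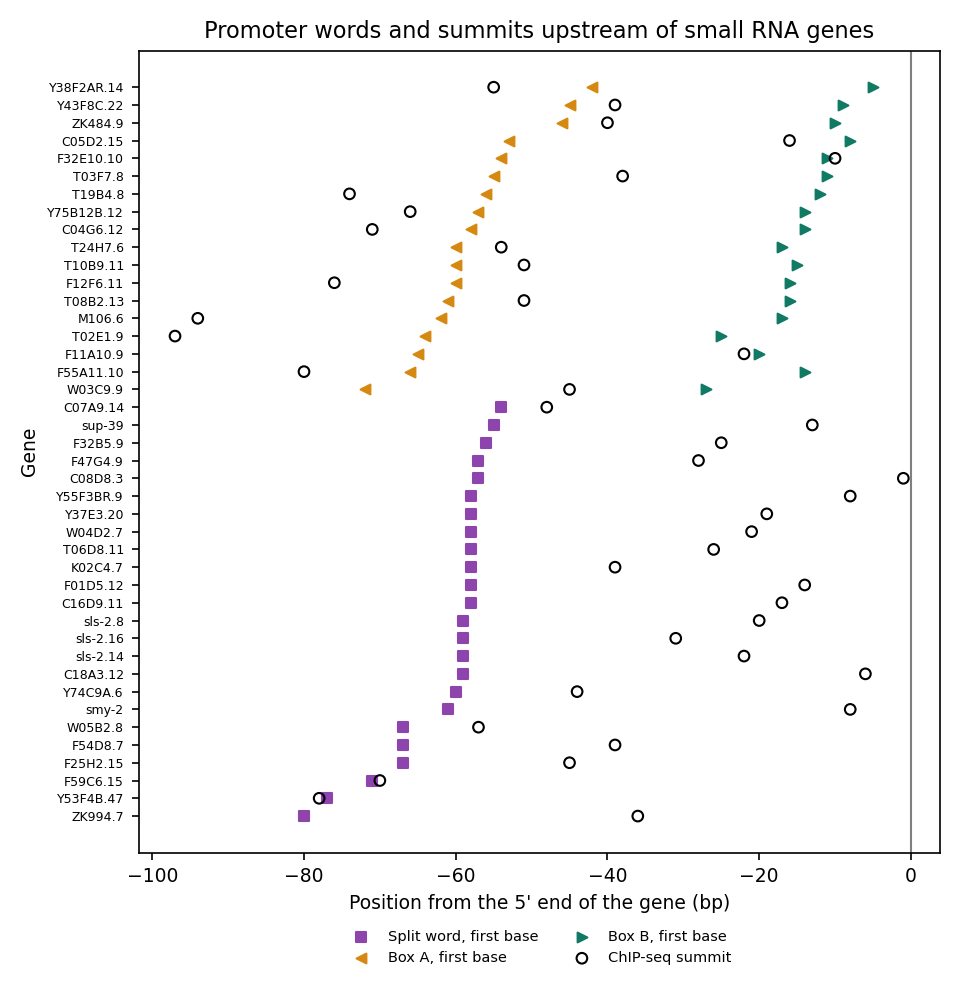
Position from the 5′ end of the gene (bp) of the ChIP-seq summit (open circles) and of the first base of the split word (squares), box A (left-pointing triangles) and box B (right-pointing triangles), for each thresholded region with a word and a summit upstream of its gene. At genes with the split word 23 of 24 summits lie between the start of the word and the gene; at genes with the box pair the summits lie to both sides of box A.

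The 6-mer with the largest difference between these regions and the other thresholded regions was AACCCG (reverse complement CGGGTT). Within 50 bp of the summit it was in 24 of 101 regions (23.8%), against 46 of 2081 (2.21%). It can form the start of the split word, and 17 of the 24 regions were at genes with that word. Both the 6-mer and the split word were drawn from these same regions, so their overlap tests neither. TATAAA was in 15 (14.9%, against 3.89%): 5 of 15 snRNA regions, 10 of 75 snoRNA regions and 0 of 11 SL RNA regions. GTTCGA, the core of box B, was in 12 (11.9%, against 3.99%), all at snoRNA genes, 7 of them with the box pair. In the SL RNA regions GTTTTA led, in 8 of 11, against 5.14% of the other thresholded regions. In the sequences shown for sls-2.1 and sls-2.2 it lies in the first bases of the SL RNA gene itself. The sls-2 genes resemble each other in sequence, so these 8 regions are not separate observations. The median GC content of the 101 bases around the summit was 52.5%, against 46.5% at other thresholded regions, and its part in the shares was not tested.

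There were 8 genes with a pair of thresholded summits. These were sls-2.1, sls-2.2, sls-2.4, the snRNA genes C52E4.8, F38E11.10, W05B2.8 and sup-6, and the snoRNA gene F25H2.15. The first summit lay upstream of the gene at 7 of them and inside it at sup-6, and the second lay downstream of the 3′ end or, at F25H2.15, inside the gene. The 2 summits were 203 to 213 bp apart, and the first had the higher signal at 8 of 8 genes, by 1.09 times at sup-6 to 3.76 times at W05B2.8. Pairs with a summit below the threshold are not in this count and went both ways. At sls-2.7 the downstream summit had 87.6 and the upstream one, which did not pass, 32.8. At F32B5.9 the upstream summit had 94.9 and the downstream one, which did not pass, 34.2. The smallest spacing of any listed summits was 199 bp, so the lists hold no closer pair. Of the 101 thresholded regions, 16 (15.8%) had another thresholded summit within 300 bp, against 74 of the other 2081 (3.56%).

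The thresholded regions are those of highest signal for both replicates together, which comes from these same 2 libraries, so their likeness between replicates is in part fixed by that choice and is given as a description. A summit of both replicates lay within 100 bp of the joint summit for 93 of the 101 thresholded regions. Across these regions the log10 signal of the replicates had a Pearson correlation of 0.818 and a Spearman correlation of 0.696, where the other thresholded regions had 0.892 and 0.783 over 1973 regions; regions of the same 2 libraries are not independent. Signal was higher in replicate 1 at 77 of the 93, by a median of 1.48 times (1.42 times in the other regions), and the replicates are not on a matched scale. The SD of the log2 ratio was 0.62. Of the 101 regions, 82 (81.2%, 72.5 to 87.6%) overlapped the 2182 strongest regions of each replicate, against 76.6% of the other thresholded regions. Another 8 overlapped those of replicate 1 only, 9 those of replicate 2 only and 2 those of neither.

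**Figure D5:**
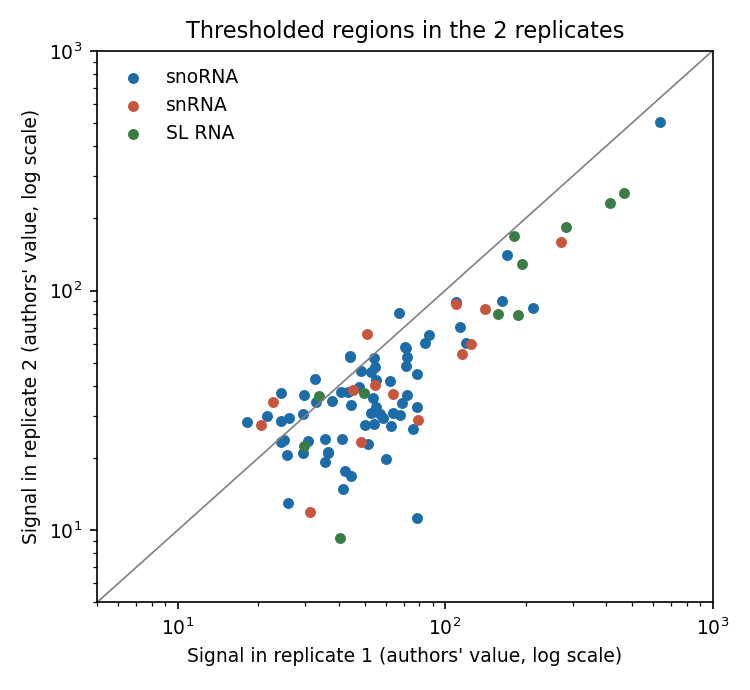
Signal in replicate 1 (x axis) and replicate 2 (y axis), authors' values on log scales, for the 93 thresholded regions with a summit of both replicates within 100 bp, coloured by class; the line marks equal values. Of the 93 points, 77 lie below the line, and the highest point is F39B2.14, with 636 in replicate 1 and 507 in replicate 2.

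Genes for the proteins that make or carry these RNAs were looked at over the promoter window, from lists of 53 names of which 44 matched an annotated protein-coding gene. A thresholded summit was in the window of 19 of the 44 (43.2%), where 9.85% of all protein-coding genes had one. By mistake 3 of the 44 genes were on these lists: gar-1, an acetylcholine receptor gene, sut-2, a poly(A) RNA-binding protein gene, and nsun-5, a ribosomal RNA methyltransferase gene. Without them 18 of 41 (43.9%) had a summit, and they are left out of the counts that follow. Of 7 genes for snoRNP proteins, which bind snoRNAs and carry out the modification, 7 had one. The signal was 336 at fib-1, the fibrillarin methyltransferase, 221 at nol-58 and 112 at nol-56, its partners on box C/D snoRNAs, and 167 at nola-3 and 83.4 at dkc-1, which belong to the box H/ACA complex. It was 128 at Y48A6B.3 and 94.4 at snu-13. Other names on the list, Y66H1A.4 among them, matched no gene and were not counted.

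Of 11 Integrator genes, whose complex cuts the 3′ ends of snRNA precursors, 7 had one: ints-4 with 504, ints-11, the endonuclease subunit, with 111, ints-9 with 106, ints-2 with 99.8, ints-1 with 71.6, ints-5 with 55.7 and ints-8 with 51.9. Of 10 genes for SNAPc subunits and TATA-binding proteins, 2 had one, snpc-3.4 with 402 and tlf-1 with 123. Of 5 SL RNP genes, 1 had one, sna-3 with 119. Of 8 genes for RNA polymerase III and its factors, 1 had one, tftc-1 with 128. Summits are shared where promoter windows of neighbouring genes overlap, and no list was tested against the others.

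The threshold falls in a dense range of values. The last regions inside it were at the snoRNA genes K11C4.6 with 46.7, F25H2.14 with 46.6 and Y23H5B.10 with 45.9. The first outside were at the snRNA gene F42C5.12 with 45.4 and the snoRNA genes F07A11.15 with 44.8 and C14C10.8 with 43.3. At K11C4.6 and F07A11.15 there was no summit of replicate 2 within 100 bp.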

How the data were processed

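Chromatin immunoprecipitation sequencing of eGFP-LSY-2 was read from region lists in narrowPeak layout, 1 for each of 2 biological replicates, 1 for both together and the IDR-thresholded list. Per the deposited lists of files, the authors called regions on ce11 alignments against a control alignment. The sources used here name neither an aligner nor a caller, and the control library was not analysed here. Each deposited signal value is the caller's own and is not scaled between replicates. The deposited −log10 q-value stood at its cap of 3.63 for 97 of the 101 thresholded regions, so regions were ranked by signal. Gene models came from Ensembl release 115 (WBcel235, which is ce11), and symbols come from RefSeq, since Ensembl gives some genes the same name; all 475 small RNA genes matched.

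The members, gene lists and words were chosen with earlier results of these data known. Named with values are all thresholded SL RNA and snRNA regions, the 10 snoRNA regions of highest signal, 3 regions to each side of the threshold, and any region near 2 classes, of which there were 0; smy-2 was named after its value was seen. No test was made, because there is 1 group and regions are not replicates. Intervals are 95% Wilson intervals and cover counting over regions or genes only. Alternatives were other distances, overlap with the gene, regions near tRNA genes kept, each replicate alone, the upper 50% of regions, and other windows. Python 3.11.15, numpy 2.4.6, scipy 1.17.1, pandas 2.3.3 and matplotlib 3.10.9 were used, and the counting was tested on simulated data (4 of 4 checks passed).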

Additional observations from a re-analysis of the deposited data

How the results depend on the processing

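Across other distances, overlap rules, replicates and windows, the 7 summary values stayed within 1.5 times for counts, or within the error, except as follows. With the upper 50% of thresholded regions alone, there were 57 regions at 52 genes, their median signal was 0.858 times that of the upper 50%, and 98.2% overlapped the strongest regions of both replicates. The share with AACCCG was 9.90% within 25 bp of the summit and 34.7% within 100 bp. The counts are of fewer regions, and the AACCCG shares are of windows of another width. In the upper 50% the regions at small RNA genes had a lower median signal than all regions there, and why was not tested. With 1 replicate alone, 220 to 231 regions were listed and 94 to 96 were among the 2182 of highest signal, at 87 to 88 genes; the median signal was 1.03 to 1.096 times that of all, 73.4 to 76.04% of summits were upstream, and 26.04 to 27.7% held AACCCG. 3 alternatives were added after the data were seen: the earlier pair of box words found 12 genes, 10 with a thresholded summit (20 of 29 with the tRNA consensus, 11 genes in common), leaving out the genes listed by mistake gave 18 of 41 protein-coding genes with a summit, and taking the strongest replicate summit inside the region gave a replicate ratio of 1.57 over 98 regions, against 1.48. No paired analysis was possible because there is 1 group. The ce10 lists were not run, since no annotation of that build was used and no coordinate was moved. The depth is unknown, so whether genes without a region are free of binding cannot be said.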
